A study of Obba rivulosa with 6 samples.

Results

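Of the 12424 gene models of the white-rot fungus Obba rivulosa listed in the deposited files, 201 (1.62%) stood highest in the middle of a long culture on wood. They were chosen from the measured values themselves. With v defined as FPKM + 1 (FPKM is a level scaled by model length and library size), a model qualified when its lower week 4 value of v was at least 2 times the highest v among the libraries of weeks 2 and 8, and when both week 4 libraries held 10 FPKM or more. That quotient is called the peak ratio below. All samples were of 1 strain, monokaryon 3 A-2 from the dikaryotic strain FBCC1032. It was grown without stirring, in the dark, on Norway spruce wood sticks laid on water agar, and whole colonised sticks were frozen after 2, 4 or 8 weeks. Each week had 2 samples, so 6 libraries were compared, and no untreated or other-substrate group was part of the design. Whether the paired samples of a week came from separate cultures is not stated in the labels. The p-values below therefore rest on sample-to-sample spread that may be technical.

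White-rot basidiomycetes are the fungi known for breaking down lignin, the aromatic polymer that encases cellulose and hemicellulose in wood. They do so with secreted oxidative enzymes, such as manganese peroxidases and laccases, and use secreted hydrolases and oxidases to release sugars from the polysaccharides. In spruce, a softwood, the main hemicellulose is a galactoglucomannan, and the wood is poor in nitrogen, so the fungus lives for weeks on a substrate that changes as it is consumed. The study asked how its needs shift over that time, with attention to the carbohydrate-active enzymes and central carbon metabolism. The files give each model only a JGI identifier (prefix jgi|Obbri1) and no product name, so the models below are named by the protein ID inside the identifier and no function is given for any of them. The gene lists by product name were therefore not analysed here.

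Before and after week 4 the 201 models were of ordinary level, and at week 4 they were among the abundant ones. Their median level was 28.3 and 28.4 FPKM in the week 2 libraries, 150.2 and 216 FPKM in the week 4 libraries, and 41.1 and 29.9 FPKM in the week 8 libraries (replicates 1 and 2 in each case). For comparison, the median of the 10889 models that passed the count filter lay between 22.5 and 29.3 FPKM in all 6 libraries. Together the members held 1.74% ± 0.03 of all FPKM in week 2 (SD, n = 2), a share that was 9.51% ± 1.59 in week 4 and 2.05% ± 0.37 in week 8. In expected counts they held 7.88% and 9.93% of the reads of the week 4 libraries, out of totals that ran from 4908235 to 5154075 expected counts over the 6 libraries. In the week 4 libraries, 17 and 24 of them were among the 100 most abundant models of replicates 1 and 2, against 1 in each week 2 library and 2 and 1 in the week 8 libraries. Since the rule chose on these very differences, the figures describe the set and test nothing. Sequencing gives shares of a library, so more transcript of these models per stick and less transcript of the others cannot be told apart.

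**Figure D1:**
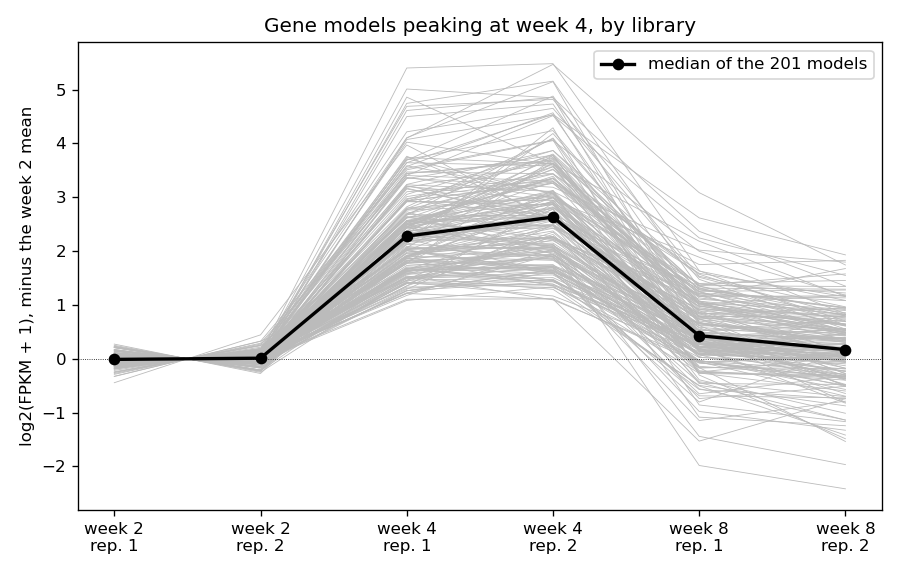
Each grey line joins the values of 1 of the 201 gene models in the 6 libraries (horizontal axis), as log2(FPKM + 1) minus the model's own week 2 mean (vertical axis), and the black points are the medians over the models. The replicates of a week have no order. The median is above 2 in both week 4 libraries and close to the week 2 level in the week 8 libraries, with single models left above or below.

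Most members were transcribed throughout and were raised at week 4 rather than switched on. In all, 147 stood at 10 FPKM or more in all 6 libraries, 25 were below 10 FPKM in 1 to 3 of the 4 libraries of weeks 2 and 8, and 29 were below 10 FPKM in all 4 of them. A single member fell under 1 FPKM in any library, model 643921, which was listed at 0.68 FPKM in week 2 replicate 1. It was singled out after its values were seen, and it shares reads with another model. By their week 4 mean, 62 members were below 100 FPKM, 126 from 100 up to 1000 FPKM and 13 at 1000 FPKM or more, with a median of 193 FPKM. The median peak ratio was 2.81. It was at least 3 for 83 members, at least 4 for 42 and at least 8 for 12. On the scale of edgeR's fitted log2 fold changes, the members lay between 1.09 and 5.59 above week 2 at week 4 (median 2.53), and between -5.30 and -1.36 at week 8 relative to week 4 (median -2.40). edgeR called all 201 higher at week 4 than at week 2, where 19.5% of all tested models were called higher, and all 201 lower at week 8 than at week 4, where 20% were called lower. The rule had used both contrasts, so these calls add nothing.

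The largest peak ratio as defined by the rule was that of gene model 224345 (CE224168_303, 1314 bases long). It stood at 3.52 and 3.13 FPKM in the week 2 libraries, 105 and 124 FPKM in those of week 4, and 4.20 and 2.95 FPKM in those of week 8, a peak ratio of 20.3. The week 2 and week 8 values overlapped. First place depended on the libraries and the pseudocount. With 5 in place of 1 added to FPKM the ratio was 11.9 for model 224345 and 13.1 for model 774262, without week 8 replicate 1 it was 23.4 and 27.4. With week 4 replicate 1 left out, model 605483 stood at 25.9 against 24.0 for model 224345. Behind these values, the 6 libraries held, in the order of the FPKM values, 23 and 21, then 683 and 798, then 28 and 20 expected counts.

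The next in order combined a sharp peak with a very high level. Model 774262 (estExt_Genewise1Plus.C_460005, 1063 bases) stood at 30.8 and 35.3 FPKM at week 2, 1435 and 1517 FPKM at week 4, and 105 and 51.5 FPKM at week 8, a peak ratio of 13.6 (27.4 without week 8 replicate 1). Both week 8 libraries lay above both of week 2, and week 8 replicate 1 stood well above replicate 2, so this model had not come down equally in the 2 libraries. Its week 8 against week 2 log2 fold change of 0.92 ± 0.31 (SE) missed the threshold, with an adjusted p of 0.0549 by edgeR. Model 605483 (CE605306_3980, 1746 bases) stood at 13.0 and 16.1 FPKM at week 2, 266 and 547 FPKM at week 4, and 20.2 and 7.84 FPKM at week 8. Here the week 8 values lay on either side of the week 2 values, with replicate 2 the higher library at week 4 and the lower one at week 8. The peak ratio of 12.6 was 25.9 without week 4 replicate 1.

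The scarce model 790231 (fgenesh1_kg.23_#_68_#_Locus9385v1rpkm2.65, 948 bases) had the largest fitted difference between weeks 4 and 2, a log2 value of 5.59. It stood at 1.71 and 1.67 FPKM at week 2, 71.0 and 94.9 FPKM at week 4, and 5.68 and 5.59 FPKM at week 8. Unlike the models above it was called between the outer weeks, with a log2 fold change of 1.41 ± 0.38 (SE, edgeR adjusted p = 0.021) on only 8 expected counts in each week 2 library. Model 732554 (e_gw1.94.79.1, 588 bases) was the only one of the 10 largest peak ratios with its higher week 4 level in replicate 1. It stood at 18.4 and 20.04 FPKM at week 2, 328 and 245 FPKM at week 4, and 16.3 and 14.4 FPKM at week 8. All week 8 values of that model lay below those of week 2, although the difference was not called (adjusted p = 0.0531, edgeR). The other 5 of the 10 largest peak ratios, models 221071, 221063, 731161, 719602 and 655195, had ratios between 9.10 and 13.1 and week 4 means between 89.9 and 589 FPKM. Without week 8 replicate 1 the ratio of 221071 went from 13.1 to 21.4 and that of 221063 from 10.5 to 16.7, and without week 4 replicate 1 that of 731161 went from 9.76 to 19.5. The first 3 of these share reads with other models, so their levels are uncertain.

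**Figure D2:**
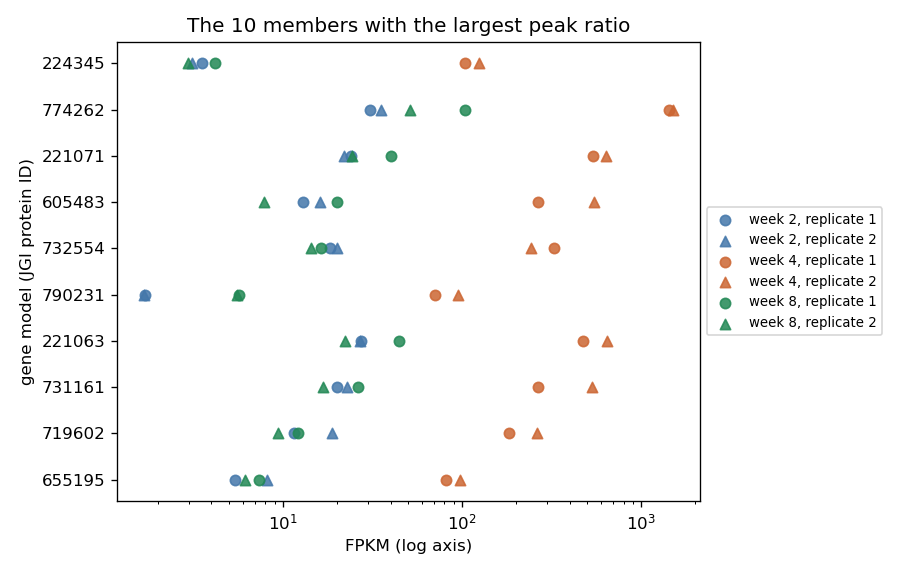
FPKM (horizontal log axis) of the 10 members with the largest peak ratio, 1 row per model and 1 point per library, with colour for the week and shape for the replicate. In each row both week 4 points stand apart to the right of the points of weeks 2 and 8. Both week 8 points lie above both week 2 points in models 774262, 221071 and 790231.

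Of the 8 members with the highest week 4 means, 5 had peak ratios below 3, and the ratios of the 8 ran from 2.11 to 13.6. Model 793336 (fgenesh1_kg.72_#_48_#_Locus2257v1rpkm56.27, 1383 bases) led with 4153 and 4345 FPKM at week 4. Its levels were 1257 and 1409 FPKM at week 2, and 1180 and 1265 FPKM at week 8. It was already abundant in the outer weeks, whose ranges overlapped. Model 733466 (e_gw1.107.3.1, 582 bases) stood at 675 and 714 FPKM at week 2, 1981 and 2589 FPKM at week 4, and 511 and 315 FPKM at week 8. Its week 8 level was lower than that of week 2 by a called log2 fold change of -1.07 ± 0.26 (SE, edgeR adjusted p = 0.0125). Model 590301 (CE590124_4558, 2109 bases) likewise ended lower than it began, at 560.0 and 587 FPKM at week 2, 1330.3 and 1237 FPKM at week 4, and 198 and 343 FPKM at week 8 (log2 fold change -1.41 ± 0.26, SE, edgeR adjusted p = 0.0026). Model 715841 (gw1.15.213.1, 678 bases) ended higher, at 62.7 and 68.6 FPKM at week 2, 2146 and 1916 FPKM at week 4, and 343 and 169 FPKM at week 8 (log2 fold change 1.64 ± 0.31, SE, edgeR adjusted p = 0.00329). The other members among the 8 highest at week 4 were 435958, 759187 and 797376, with week 4 means of 2541, 1728 and 1644 FPKM, and 774262, described above. None of these 4 was called between weeks 8 and 2.

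At the edge of the rule the members did not stand apart from the models left out. The 3 nearest inside the factor of 2 were 781436, 779952 and 796780, with peak ratios of 2.01, 2.01 and 2.02 (the last was 5.21 with week 4 replicate 1 left out and 5.12 with week 8 replicate 1 left out). The 3 nearest outside were 838040, 780691 and 316667, with ratios of 2.00, 1.99 and 1.99. Model 781436 stood at 46.2 and 46.3 FPKM at week 2, 147 and 154 FPKM at week 4, and 73.0 and 58.9 FPKM at week 8, while model 780691, just outside, stood at 50.98 and 51.6, 148 and 275, and 73.8 and 73.3 FPKM in the same order. Another 11 models met the factor but were below 10 FPKM in a week 4 library. The count of 201 depended on the factor, with 410 models at a factor of 1.5 and 83 at a factor of 3. It also depended on the libraries read, with 405 models when week 4 replicate 1 was left out. Leaving out a library can only add models, since the rule takes the lower week 4 value and the highest of the others. All 201 members therefore remained. By the same rule 274 models peaked at week 2 and 253 at week 8, and by its mirror image 63 models were lowest at week 4. After rescaling the FPKM values by edgeR's TMM factors, which remove the shift of the typical model between libraries, 259 models peaked at week 4. Of these, 200 were among the 201. The counts of the other peaks and of the mirror image were not computed on that scale, so the weeks are not ranked by them.

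Whether a week 4 peak recurred in libraries that had not chosen it was read from the 2 replicates separately. The rule applied to the 3 replicate 1 libraries alone picked 300 models. Of these, 231 (77%) also met the rule in the 3 replicate 2 libraries, where 4.56% of all models met it, and 297 (99.0%) had a week 4 level above both other weeks, against 26.7% of all tested models. The median peak ratio of the 300 models in replicate 2 was 3.17. In the other direction the rule picked 566 models from the replicate 2 libraries, and the same 231 models (40.8%) met it in replicate 1, where 2.41% of all models did. The median peak ratio of the 566 models in replicate 1 was 1.73. Of these 566, 515 (91.0%) had a week 4 level above both other weeks in replicate 1, against 26.4% of all tested models. In both directions, most models picked in one replicate were thus also highest at week 4 in the other. The factor was reached again by 77% and 40.8%, which are the same 231 models out of lists of 300 and 566. The 231 models were the 201 members, which meet the rule in each replicate by definition, and 30 others. These shares therefore describe models chosen from 1 replicate and do not test the members. The labels do not state separate cultures for the replicates, so recurrence between cultures was not tested.

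The rule set the same upper limit in FPKM for weeks 2 and 8 and did not order them. Their values had still entered the rule. The limit was also not set on edgeR's TMM scale, on which week 8 libraries read lower for the typical model than in FPKM. The calls of week 8 against week 2 below therefore describe the members beside all tested models. edgeR's quasi-likelihood test called 46 of the 201 members changed (22.9%), 27 higher and 19 lower at week 8, at a Benjamini-Hochberg adjusted p below 0.05 over all 10889 models. Among all tested models 26.9% were called, 13.2% higher and 13.7% lower, so the members were called at about the background rate. The median log2 fold change was 0.00 over the members and 0.05 over all tested models, and the quartiles of the members were -0.32 and 0.57 (-0.32 and 0.39 over all tested models). In all, 167 members (83.1%) were within 2-fold between the outer weeks, against 82.2% of all tested models. For the other 155 members no difference was called, and equality is not thereby shown. By at least 2-fold, 17 members were called higher (background 7.75%) and 12 lower (background 8.31%).

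The direction of the difference between the outer weeks depended on single libraries and on the scaling. Without week 8 replicate 1, the median log2 fold change of the members was -0.16, against 0.05 over all tested models. Without week 8 replicate 2, the median of the members was 0.13, against 0.04 over all tested models. The count of 46 became 25 and 22 when replicate 1 or replicate 2 of week 2 was left out, and 76 and 77 when replicate 1 or replicate 2 of week 4 was. The calls over all tested models moved the same way, from 2931 to 1685 and 1754, and to 3832 and 3857. With library totals as the only scaling, the median of all tested models moved to 0.37 and that of the members to 0.32. On that scale 78 members (38.8%) were called, 64 higher and 14 lower, against 41.6% of all tested models in either direction. The shares of all tested models called in each direction were not computed on that scale. By the median alone, the members did not lean upward relative to the typical model.

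The members that ended highest relative to week 2 kept part of their week 4 level. Model 796780 (fgenesh1_kg.173_#_11_#_Locus6812v1rpkm8.91, 2389 bases) stood at 37.5 and 34.3 FPKM at week 2, 631 and 1631 FPKM at week 4, and 312 and 122 FPKM at week 8. It rose between weeks 2 and 8, with a log2 fold change of 2.28 ± 0.62 (SE, edgeR adjusted p = 0.0386), but the call was lost without either week 2 library (adjusted p = 0.199 and 0.213) and without week 8 replicate 1 (log2 fold change 1.43, adjusted p = 0.141). Model 822608 (estExt_fgenesh1_pg.C_30050, 696 bases) stood at 27.8 and 30.4 FPKM at week 2, 374 and 698 FPKM at week 4, and 183 and 114 FPKM at week 8, a rise of 2.03 ± 0.39 on the log2 scale (SE, edgeR adjusted p = 0.00645). Its week 8 values lay clear of those of week 2.

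Model 176392 (CE176215_454, 924 bases) had the closest replicates of this group, with 3.30 and 3.65 FPKM at week 2, 41 and 37.6 FPKM at week 4, and 14.04 and 14.9 FPKM at week 8. Its log2 fold change between the outer weeks was 1.73 ± 0.24 (SE, edgeR adjusted p = 0.000439). Model 826509 (estExt_fgenesh1_pg.C_900008, 2247 bases) stood at 8.13 and 9.84 FPKM at week 2, 104 and 227 FPKM at week 4, and 46.2 and 28.1 FPKM at week 8. Its rise of 1.72 ± 0.46 on the log2 scale (SE, edgeR adjusted p = 0.034) was not called without either week 2 library (adjusted p = 0.185 and 0.135) or without week 8 replicate 1 (log2 fold change 1.31, adjusted p = 0.139).

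Members that ended lowest dropped below the level from which they had started. Model 467518 (CE467341_78476, 1268 bases) stood at 297 and 317 FPKM at week 2, 694 and 1264 FPKM at week 4, and 76.9 and 56.7 FPKM at week 8, a week 8 against week 2 log2 fold change of -2.52 ± 0.32 (SE, edgeR adjusted p = 0.000315). Model 793255 (fgenesh1_kg.71_#_26_#_Locus996v1rpkm141.91, 1165 bases) stood at 203 and 222 FPKM at week 2, 773 and 892 FPKM at week 4, and 77.7 and 53.7 FPKM at week 8 (log2 fold change -2.02 ± 0.23, SE, edgeR adjusted p = 0.000109). In both, every week 8 value was less than every week 2 value.

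Models 834027 (gm1.4007_g, 777 bases) and 779065 (estExt_Genewise1Plus.C_1040051, 1110.0 bases) fell by similar amounts. The former stood at 39.6 and 38.9 FPKM at week 2, 123 and 147 FPKM at week 4, and 19.4 and 15.0 FPKM at week 8 (log2 fold change -1.51 ± 0.21, SE, edgeR adjusted p = 0.000427). The latter stood at 198 and 147 FPKM at week 2, 973 and 1184 FPKM at week 4, and 80.0 and 71.5 FPKM at week 8 (log2 fold change -1.51 ± 0.22, SE, edgeR adjusted p = 0.000579). Their outer weeks did not overlap.

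**Figure D3:**
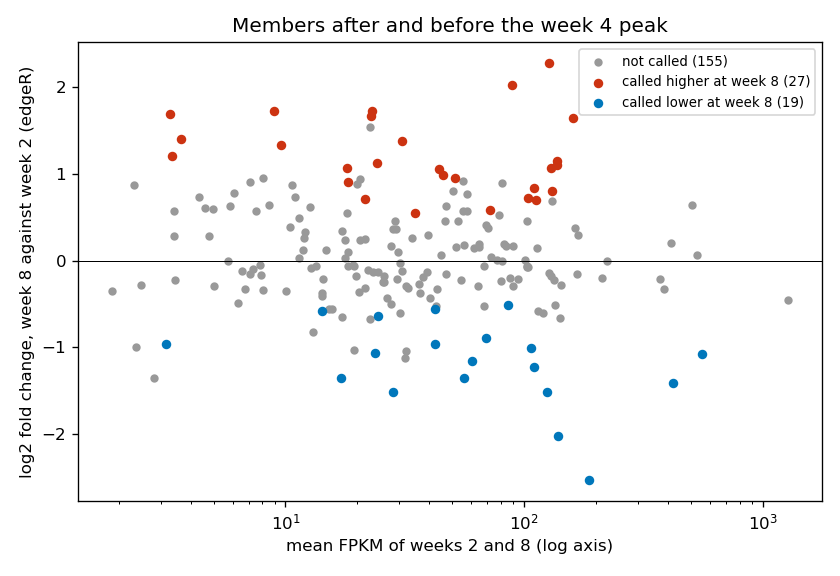
edgeR log2 fold change of week 8 against week 2 (vertical axis) for the 201 members, against their mean FPKM over weeks 2 and 8 (horizontal log axis). The 27 members called higher and the 19 called lower lie on both sides of 0 at all levels, around 155 members that were not called.

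The members also differed together between the 2 libraries of one week. The rule treats the replicates of a week alike and did not use their order. The values of both libraries had entered the rule, so the shares below describe the set. At week 4, 143 of the 201 members (71.1%) were higher in replicate 2 than in replicate 1, against 40.2% of all tested models. The median difference, replicate 2 minus replicate 1 on the scale of log2(FPKM + 1), was 0.24 for the members and -0.11 for all tested models. At week 8 the order was the other way round, with 171 members (85.1%) lower in replicate 2, against 46.7% of all tested models, and medians of -0.26 and 0.02. At week 2, 110 members (54.7%) were higher in replicate 2, against 46.3%, with medians of 0.02 and -0.02. With the TMM-scaled values, where the typical model is level between replicates, 159 members (79.1%) were higher in week 4 replicate 2 and 176 (87.6%) lower in week 8 replicate 2, against 49.4% and 50.1% of all tested models. Week 4 replicate 2 was thus the library with the highest levels for most members, and week 8 replicate 1 stood nearer to week 4 than week 8 replicate 2 did.

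Both orders were found in the same model for 124 members (61.7%), against 21.9% of all tested models. Across the 201 members, the week 4 and week 8 differences had a Pearson's r of -0.26, and across all tested models -0.16. These coefficients run across models of the same 4 libraries, and models are not independent replicates. Differences of at least 2-fold between the week 4 libraries were found for 26 members (12.9%), 23 of them higher in replicate 2, and for 3.09% of all tested models. The same held for 11 members (5.47%) at week 8 and none at week 2, against 1.25% and 0.588% of all tested models. Of the 274 models that peaked at week 2 by the same rule, 70.1% were lower in week 4 replicate 2 and 69.7% higher in week 8 replicate 2, and of the 253 that peaked at week 8, 64.8% and 65.2%, against 59.7% and 53.2% of all tested models. With the TMM-scaled values these shares were 56.9% and 67.2% for the week 2 peaks and 56.5% and 62.8% for the week 8 peaks. For all tested models they were 50.6% and 49.8%. The week 4 shares of these sets thus lay near the background. Their week 8 shares stayed above it, so an order between the week 8 libraries was not particular to the members, although it ran the opposite way in these sets. With 1 library on each side these orders have no replicate check and were not tested, and the labels name no batch with which they could be compared.

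**Figure D4:**
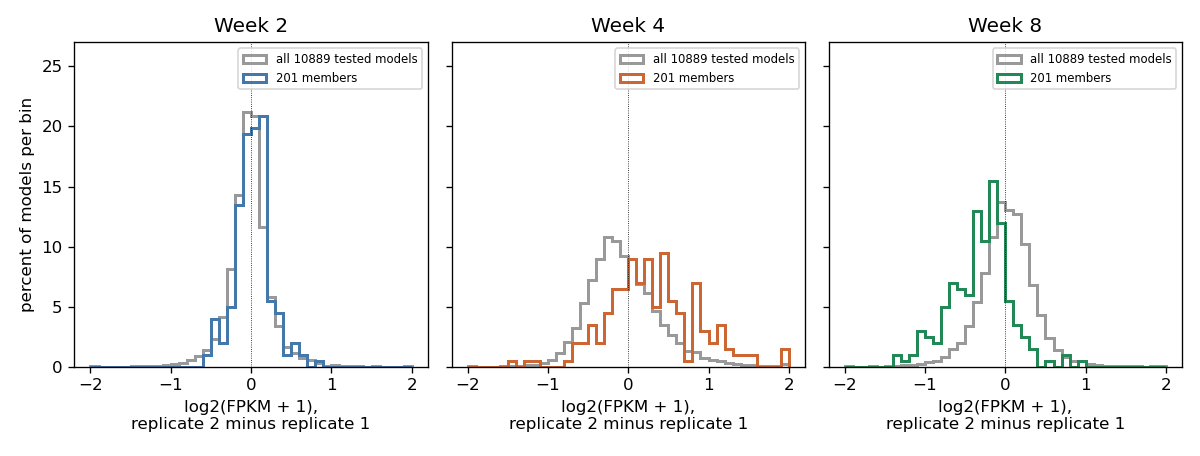
Distribution of the difference between replicate 2 and replicate 1 in log2(FPKM + 1) (horizontal axis, values beyond 2 in either direction are put in the end bins) within weeks 2, 4 and 8, as percent of models per bin (vertical axis). Grey lines are all 10889 tested models and coloured lines the 201 members. The members lie to the right of the other models at week 4, where 71.1% are above 0, and to the left at week 8, where 85.1% are below 0.

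Some properties of the models had no part in the rule. The median length of the members was 1365 bases, from 165 to 5190.0, against 1360.0 bases for all tested models. Some of their reads were divided between similar models, seen as a count that is not whole, for 18 members (8.96%), against 11.3% of all tested models. By the gene prediction set written in the identifier, 46 members (22.9%) were fgenesh1_kg models and 54 (26.9%) CE models, against 24.5% and 20.6% of all tested models. The e_gw1 set held 15.4% of the members against 10.9% of all tested models, estExt_Genemark1 held 3.48% against 7.03%, estExt_Genewise1 held 3.98% against 6.59%, and gw1 held 3.48% against 1.54%. These shares were not tested. In JGI's naming, many identifiers also carry a scaffold number and a running number on that scaffold. Such a number was found for 127 members, which lay on 89 scaffolds, 63 of these with 1 member. The most on one scaffold were 5, on scaffolds 15 and 53, which carried 74 and 33 tested models by this reading. No 2 members of the same prediction set and scaffold were closer than 7 in running number, so no run of neighbouring members was seen, although models of different sets cannot be placed relative to each other in this way.

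Read sharing linked several members to a single partner. A partner was recognised when the expected counts of both models, written to 2 decimals, summed to a whole number within 0.01 in every library, with divided reads in at least 5 of the 6 libraries. This criterion was chosen after the data had been seen. It found a partner for 10 of the 18 members, in 8 pairs, of which 2 consisted of 2 members. Models 221063 (CE220886_317, 740.0 bases) and 221071 (CE220894_784, 1663 bases) formed the first of these. The former stood at 27.3 and 27.1 FPKM at week 2, 473 and 648 FPKM at week 4, and 44.3 and 22.3 FPKM at week 8, and the latter at 24.0 and 22.1, 541 and 637, and 40.3 and 24.3 FPKM. Models 109596 (CE109419_2807, 1200.0 bases) and 735195 (e_gw1.132.54.1, 453 bases) formed the second, with 205 and 385 FPKM for the former and 229 and 403 FPKM for the latter at week 4. In each pair both models were highest at week 4 and close in level in every library, although the order of the week 2 libraries was opposite in models 109596 and 735195. The files do not tell whether such models are near-identical copies or overlap at one place, so each pair may count 1 peak as 2.

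In the other 6 pairs the partner was not a member. Partner 546593 of member 546578 had fitted log2 differences of 1.78 (week 4 against week 2) and -1.70 (week 8 against week 4), the same signs as the member, although its week 4 and week 8 levels overlapped. Partner 824856 of member 435958 was higher still at week 8, with 9.90 and 14.2, then 52.1 and 35.5, then 68.8 and 78.0 FPKM. Partners 824221 (of 724980) and 799851 (of 792430) stayed below 10 FPKM in all libraries. The 2 remaining partners were lower in both week 4 libraries than in both week 2 libraries. Model 797987 (fgenesh1_kg.233_#_16_#_Locus1119v1rpkm125.46, 1653 bases) stood at 10.1 and 9.78 FPKM at week 2, 71.8 and 41.1 FPKM at week 4, and 14.3 and 13.1 FPKM at week 8. Its partner 797972, which bears the same locus name on the same scaffold number, stood at 52.0 and 50.0 FPKM at week 2, 29.5 and 27.5 FPKM at week 4, and 22.9 and 23.9 FPKM at week 8. The member was the lower of the pair at weeks 2 and 8 and the higher at week 4. Model 792136 stood at 10.1 and 8.89 FPKM at week 2, 56.0 and 40.0 FPKM at week 4, and 15.1 and 14.5 FPKM at week 8, while its partner 792135, the preceding number on the same scaffold, stood at 122 and 104, 63.7 and 49.2, and 103 and 77.4 FPKM. That partner was lowest in the week in which the member was highest. Reads that the authors' counting assigned to the wrong model of a pair would alter both courses, so these levels are uncertain.

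**Figure D5:**
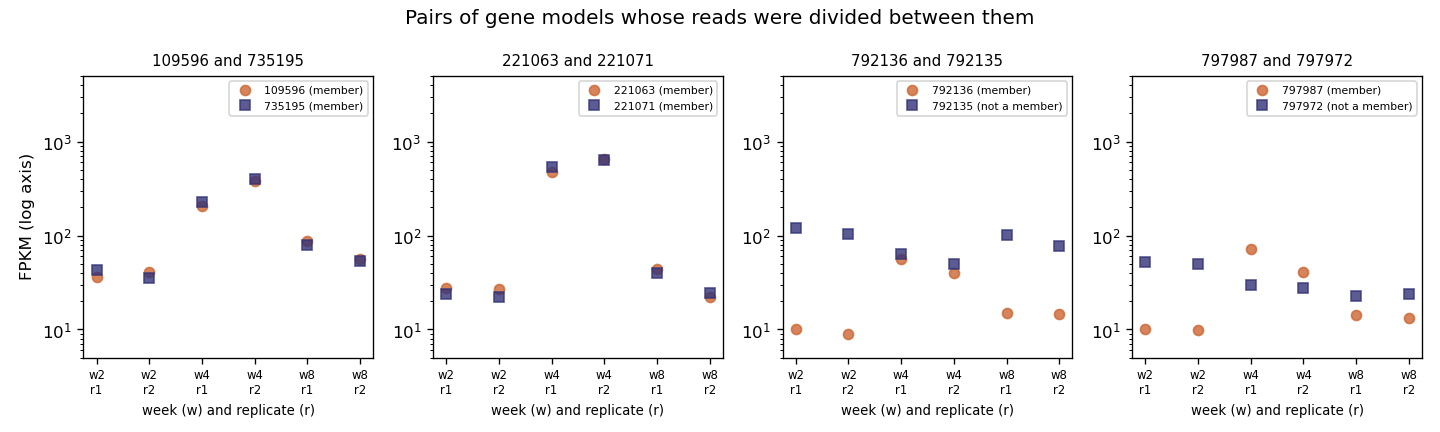
FPKM (vertical log axis) in the 6 libraries (horizontal axis) for 4 pairs of gene models whose reads were divided between them, namely the 2 pairs of members and the 2 whose partner was lower at week 4 than at week 2, a choice made after the values were seen. In the first 2 panels both models peak at week 4, and in the other 2 the member (circles) is highest at week 4 while its partner (squares) lies lower there than at week 2.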

How the data were processed

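Messenger RNA was sequenced in 6 libraries, 2 for each of weeks 2, 4 and 8. The tools were BWA, Bowtie and RSEM, per the submitters' processing notes, whereas their versions and settings, the genome build and any filter were not given in the sources used. Per the file headers, the deposited tables list for each gene model its length, expected count and FPKM. The authors' expected counts are estimates without normalization, and the authors' FPKM values are scaled by model length and library size. A model with no row in a file was taken as 0.

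Expected counts were rounded and tested with edgeR 4.0.16 in R 4.3.3 (quasi-likelihood, robust, TMM scaling, filterByExpr with a minimum count of 10, 1 fit with a mean per week). This kept 10889 models, all 201 members among them, and p-values were adjusted over all of them by the Benjamini-Hochberg method. SEs were derived from the F statistic. In simulated counts for week 8 against week 2, it recovered 70 of 100 changes of 2-fold and 94 of 100 of 4-fold. There were 7 false calls in all. All other models were simulated without change, whereas 26.9% of tested models were called in the data. These rates may therefore not carry over to the data. The simulated spread was the trend for a model's level, so models that vary more are not covered. Alternatives used DESeq2 1.42.0, limma 3.58.1, other scalings and fewer libraries. The FPKM values are not TMM-scaled, and week 8 libraries read higher for the typical model than on the TMM scale. Counting error is small for abundant models.

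The members and gene lists were chosen with earlier results of these data known. Named models are the 10 members with the largest peak ratio, the 8 highest at week 4, the 4 that rose and the 4 that fell most among those called between weeks 8 and 2, and the 3 nearest on each side of the factor. Shared-read pairs were added after the values were seen.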

Additional observations from a re-analysis of the deposited data

How the results depend on the processing

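The number of models peaking at week 4 was 201, and 410 at a factor of 1.5, 83 at a factor of 3 and 566 from the replicate 2 libraries alone. Leaving out 1 library, which can only add models, gave 205 to 405. The other settings of pseudocount, minimum FPKM and scaling gave 180 to 266. The number of members called between weeks 8 and 2 was 46 (2931 of all models), and 29 with a bound of at least 2-fold, 78 with total counts only (4533), 75 with only the libraries of weeks 2 and 8 (3775), and 76 and 78 with limma on log2(FPKM + 1) and log2(FPKM + 0.1) (4359 and 4294), which also use no TMM scaling. Leaving out 1 library gave 22 to 77, in fits where the lone library of a week is assumed to vary like the others. With the replicate number as a block, 42 members were called (2717 of all models). The deviations of same-numbered libraries from their week means correlated at 0.01 (weeks 2 and 4), -0.07 (weeks 2 and 8) and -0.14 (weeks 4 and 8). With 2 libraries per week, such values cannot settle whether same-numbered libraries shared a culture or a day. DESeq2 called 50 (2473). The log2 fold changes of the 8 models named for weeks 8 and 2 kept their sign in all 128 alternatives and lost the call in 10, all of models 796780 and 826509. With no filter on low counts their adjusted p was 0.0633 and 0.0516, and with the block 0.152 and 0.0783. The cause was not tested. The week 4 share held by the members was 9.51% of FPKM and 8.9% of expected counts. Without 1 week 4 library this share is only the value of the other library (10.6% or 8.38%), which shows no stability. The counts of members higher in week 4 replicate 2 and lower in week 8 replicate 2 stayed within 1.5 times under the settings tried on them. The peak ratios of the 27 named members moved by more than their replicate spread in 36 of 270 alternatives. All stayed above 1, but for most settings this was fixed in advance. Leaving out a library can only keep or raise such a ratio, and another pseudocount cannot carry it across 1. With 2 libraries per week, a difference that was not called may still exist.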
